A study of Mus musculus with 3 samples.

Results

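Pericytes and smooth muscle cells, together called mural cells, were sought among tdTomato-sorted cells of the mouse larynx by their transcripts. A kept barcode was selected when it carried at least 1 UMI (unique molecular identifier, 1 captured transcript) of at least 3 of the 8 genes Rgs5, Myh11, Notch3, Kcnj8, Higd1b, Cspg4, Abcc9 and Tagln, and no UMI of Epcam, Pdgfra and Cdh5. This rule selected 309 of 41033 kept barcodes, 134 in library 1, 65 in library 2 and 110 in library 3. All 3 libraries came from Lrig1CreERT2/+; ROSA26 CAG-LSL-tdTomato/+ mice, in which tamoxifen lets Cre switch on tdTomato in cells that use the Lrig1 promoter, 24 h after recombination. Each library pooled 10 larynges, 5 of males and 5 of females, so it holds no information on single animals. Every cell compared here passed the same gate, which had been set with wild-type mice and with mice carrying the reporter without Cre, and no unlabelled cells were sequenced. The mice carry 1 modified Lrig1 allele in all groups.

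Mural cells wrap the endothelial tube. Smooth muscle cells ring arteries and arterioles and contract through smooth muscle actin and myosin, while pericytes sit on capillaries within the same basement membrane as the endothelium, and are known for the Kir6.1 channel encoded by Kcnj8 with its partner subunit from Abcc9. Recruitment of both runs through endothelial PDGF-B and the receptor encoded by Pdgfrb, and Notch3 is the Notch receptor typical of the arterial wall.

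The files held 60530 barcodes. Of these, 14252, 7527 and 27614 in libraries 1, 2 and 3 had 500 to 8000 genes, from 1000 up to 40000 UMIs and no more than 8% of UMIs from mitochondrial genes. A further 1707, 386 and 6267 were dropped because they carried UMIs of all of Krt5, Ltf, Scgb3a1 and Dcn. Between 17 and 84 barcodes were shared by a pair of libraries after these limits, but no selected barcode was selected in another library, and 1 was kept unselected in another. The selected cells had median UMI counts of 8989, 10822 and 7642, against 9776, 13961.5 and 12256 in all other kept barcodes.

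The share of selected cells was 1.07% in library 1 (95% exact binomial interval 0.896 to 1.26), 0.910% in library 2 (0.703 to 1.16) and 0.515% in library 3 (0.424 to 0.621). These intervals cover counting error only. The mean was 0.831% ± 0.285 (SD, n = 3), and the share in library 3 lay below the intervals of the other libraries.

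The name went against the data for part of the selected cells. Pax7 and Myf5, transcription factors known from skeletal muscle satellite cells, had UMIs in 171 of the 309 cells, 59, 52 and 60 per library, and 164 of the 171 carried both. Their share fell steeply with the number of rule genes. Among cells with exactly 3 rule genes, just inside the threshold, 155 of 168 carried Pax7 or Myf5 (92.3%), while just outside it, with 2 rule genes, 506 of 540 did (93.7%). With 4 rule genes it was 12 of 47 (25.5%), and with 5 or more it was 4 of 94 (4.26%). Each library showed this drop, from 94.5, 97.9 and 86.2% at 3 genes to 3.17, 12.5 and 4.35% at 5 or more. The selected cells are therefore described below as a whole and as Pax7/Myf5− cells (138 cells, 75, 13 and 50 per library) and Pax7/Myf5+ cells (171 cells). A further 194 kept cells had at least 3 rule genes and were left out for a UMI of Epcam, Pdgfra or Cdh5. The division by Pax7 and Myf5 was made after the values were seen, so its levels are given without a test, and fits that leave out the Pax7/Myf5+ cells are alternatives chosen at that point.

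**Figure D1:**
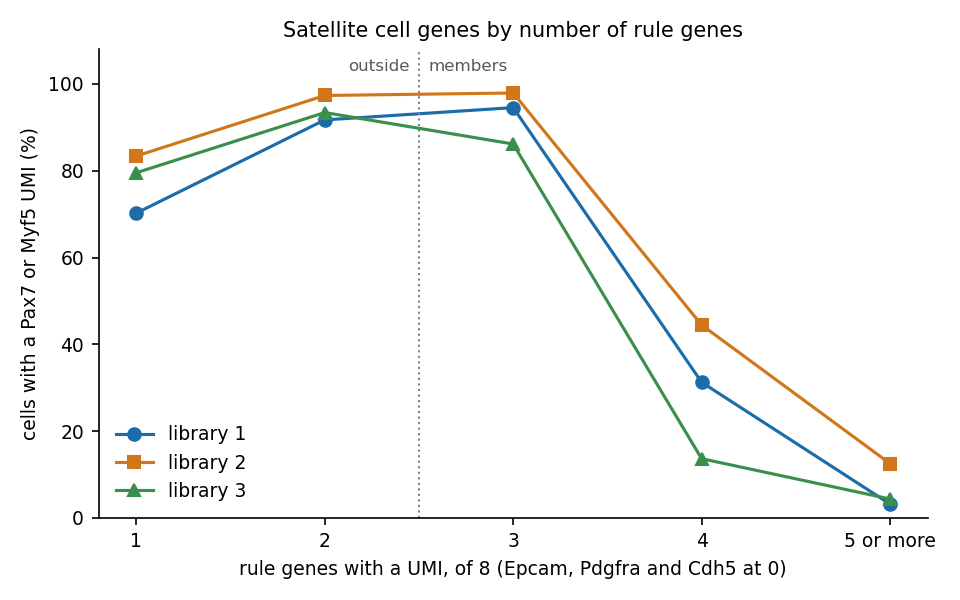
Percent of cells with a Pax7 or Myf5 UMI (vertical axis) by the number of the 8 rule genes with a UMI (horizontal axis), among cells without Epcam, Pdgfra and Cdh5 UMIs, 1 line per library; the dotted line is the threshold of the rule. The share was still 86.2 to 97.9% at 3 genes, just inside the threshold, and dropped at 4 and more.

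Other cell types were checked by the summed levels of marker lists in CPM, a group's UMIs of a gene scaled to a total of 1000000 per library. The satellite cell list summed to 3374, 3538 and 3987 CPM in Pax7/Myf5+ cells and to 3.15, 0 and 0 CPM in Pax7/Myf5− cells, with Myog at 0 in both. Pax7 and Myf5 are in this list and made the division, so part of the contrast was set in advance. Chrdl2, a listed gene with no part in the division, stood at 315, 222 and 300 CPM in Pax7/Myf5+ cells and at 0 in Pax7/Myf5− cells. Immune genes summed to 1716, 0 and 151 CPM in Pax7/Myf5− cells, against 17805, 21132 and 14899 CPM in immune cells, and C1qa had UMIs in 3 of 138 of them, all in library 1. Epithelial keratins and adhesion genes summed to 297, 150 and 649 CPM in the selected cells and to 6539, 7468 and 12507 CPM in all other cells. A doublet caller marked 46 of the 50 Pax7/Myf5− cells of library 3 and 31 of its 32 endothelial cells, but 7 of 75 Pax7/Myf5− cells in library 1 and 5 of 13 in library 2. In the marked Pax7/Myf5− cells of library 3, Krt5 stood at 46.2 CPM. All other kept barcodes of that library, pooled, had 1352 CPM or more, and its marked endothelial cells 55.9 CPM. The rule bars Epcam, and Krt5 is a gene of the limit on mixed barcodes, so low Krt5 was partly set by the selection. Secretory genes summed to 782, 254 and 1916 CPM in Pax7/Myf5− cells and to 578, 178 and 333 CPM in Pax7/Myf5+ cells. The epithelial list gave 355, 329 and 926 CPM against 236, 110 and 454 CPM. Whether the marked cells are doublets was not tested further.

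The rule genes themselves chose the cells, so their levels are a description. In Pax7/Myf5− cells, Rgs5, a regulator of G protein signalling in pericytes, reached 6124, 1651 and 3378 CPM in libraries 1 to 3, and Myh11, the smooth muscle myosin heavy chain, reached 2727, 4850 and 6932 CPM. In Pax7/Myf5+ cells Rgs5 stood at 72.4, 11.7 and 27.6 CPM and Myh11 at 1.68, 0 and 80.9 CPM. These ranges did not overlap. Notch3 was shared by both, at 875, 687 and 685 CPM in Pax7/Myf5− cells and 308, 248 and 439.8 CPM in Pax7/Myf5+ cells, against 21.3, 20.9 and 25.5 CPM in all other cells.

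Detection of these rule genes per cell is a description too. Of the 138 Pax7/Myf5− cells, 128 had Myh11, 104 had Rgs5, 94 had both and none had neither. Of the 171 Pax7/Myf5+ cells, 3 had Myh11, 17 had Rgs5 and 152 had neither. The 171 cells had UMIs of Notch3 (160 cells), Abcc9 (119 cells), Kcnj8 (92 cells) and Tagln (87 cells), mostly at low counts, with a median of 2, 2 and 3 Notch3 UMIs per cell. In 192 immune cells, which should lack these genes, at most 3 had a UMI of any single rule gene, at median depths of 10274, 5857 and 5531 UMIs. The immune cells had been chosen with at most 2 rule genes, so low detection in them was partly set by that choice. Pax7/Myf5+ cells that the rule left out also carried Notch3, in 46.2% of 2430 cells.

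Pericyte and smooth muscle genes were unevenly spread over the libraries. Kcnj8 or Abcc9, which lie 15757 bases apart on chromosome 6 (Kcnj8 at chr6:142510563-142517830 and Abcc9 at chr6:142533588-142648571, GRCm39, both on the minus strand), had a UMI in 66.7, 46.2 and 18.0% of Pax7/Myf5− cells in libraries 1, 2 and 3. After thinning each cell to 2000 UMIs, with 4, 0 and 3 shallower cells left out, the shares were 59.2, 23.1 and 6.38%. Rgs5 had a UMI in 96, 53.8 and 50% (thinned 88.7, 53.8 and 44.7%), whereas Myh11 had one in 88, 92.3 and 100% (thinned 73.2, 84.6 and 95.7%). The median Pax7/Myf5− cell of library 1 carried 33 Rgs5 and 5 Myh11 UMIs, and that of library 3 carried 0.5 Rgs5 and 20.5 Myh11 UMIs. The share with Kcnj8 or Abcc9 was thus highest in library 1 and the share with Myh11 in library 3, and a level summed over a library moves with this makeup. Fewer cells of a kind and less RNA per cell cannot be told apart in such sums.

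**Figure D2:**
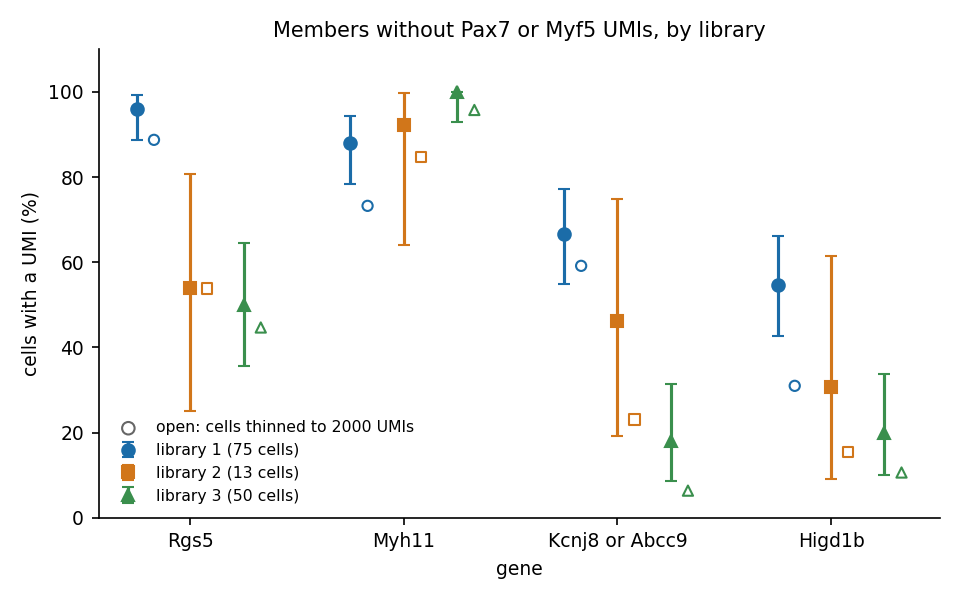
Percent of Pax7/Myf5− selected cells (members in the title) with a UMI of Rgs5, Myh11, Kcnj8 or Abcc9, and Higd1b (horizontal axis), 1 filled symbol per library with its 95% exact binomial interval and an open symbol for cells thinned to 2000 UMIs. Library 1 lay highest for Rgs5 and for Kcnj8 or Abcc9, and library 3 highest for Myh11.

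The smooth muscle contractile genes share a regulator, serum response factor with its coactivator myocardin, which binds the CArG box. The 250 bases upstream of each annotated start were therefore searched for the strict form of this motif on both strands. That form is a fixed run of only A or T between CC and GG, and boxes that depart from it were not counted. The strict form was found for 508 of 21579 protein-coding genes (2.35%), for 1 of the 8 rule genes (Tagln), for none of 24 further mural marker genes and for 4 of 25 contractile genes (Myl9, Csrp1, Flna and Vcl). A gene without it may still hold a CArG box of another form. A match is a description of the letters, not of a bound site. The upstream windows of Tagln, Csrp1 and Flna are shown because they hold no annotated exon, so that the motif can be seen in place. Each is read 5′ to 3′ on the gene's strand in GRCm39, with the motif in capitals: Tagln at chr9:45847405-45847654 on the minus strand, Csrp1 at chr1:135651996-135652245 on the plus strand (1 of its 7 annotated starts) and Flna at chrX:73293457-73293706 on the minus strand.
Tagln: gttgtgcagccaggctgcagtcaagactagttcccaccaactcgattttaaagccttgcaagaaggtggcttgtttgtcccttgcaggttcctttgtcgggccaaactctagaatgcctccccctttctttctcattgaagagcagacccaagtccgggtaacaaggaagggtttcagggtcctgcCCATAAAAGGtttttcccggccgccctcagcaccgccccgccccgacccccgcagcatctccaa
Csrp1: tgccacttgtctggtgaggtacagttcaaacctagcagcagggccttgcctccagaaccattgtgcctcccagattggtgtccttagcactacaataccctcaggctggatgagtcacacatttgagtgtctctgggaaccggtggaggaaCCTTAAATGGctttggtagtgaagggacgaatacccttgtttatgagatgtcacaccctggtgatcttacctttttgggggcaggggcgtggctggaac
Flna: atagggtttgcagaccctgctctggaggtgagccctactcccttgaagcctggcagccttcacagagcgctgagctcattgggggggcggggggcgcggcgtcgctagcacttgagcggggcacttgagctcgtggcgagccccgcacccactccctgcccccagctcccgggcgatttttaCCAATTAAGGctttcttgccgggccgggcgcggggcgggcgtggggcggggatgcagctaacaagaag
The motif began 64 bases before the Tagln start, 99 bases before that of Csrp1 and 68 bases before that of Flna. In Myl9 it lay 151 and 173 bases before 2 of its starts, and in Vcl 227 bases before the start.

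To see which genes set the selected cells apart, UMI counts were summed per library and compared with the sums of all other kept cells (edgeR quasi-likelihood test, Benjamini-Hochberg adjusted over 18337 genes, n = 3 libraries). At an adjusted p under 0.05, 5115 genes differed (27.9%), with 1954 higher (10.7%) and 3161 lower (17.2%) in the selected cells. Without library 3 the number was 2646, without library 2 it was 2902 and without library 1 it was 3780. The median log2 fold change of all genes tested was −0.17. The share of genes higher was 8.65% without library 1, 6.08% without library 2, 4.73% without library 3 and 8.45% without Pax7/Myf5+ cells (13.7% lower), against which the counts of each list under these alternatives are to be read. Genes with a part in the rule carry no test.

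Among 24 mural marker genes outside the rule, 23 were higher, none was lower, and the median log2 fold change was 5.53. Without library 3, 19 were higher. Acta2, the smooth muscle actin, stood at 3389, 2457 and 7773 CPM in the selected cells and at 30, 18.8 and 27.8 CPM in all other cells, a log2 fold change of 7.37 ± 0.53 (SE, adjusted p = 9.75e-05). Its level in Pax7/Myf5− cells was 6116, 10708 and 17615 CPM, and in Pax7/Myf5+ cells 477, 617 and 832 CPM. Both ranges lay above all other cells pooled. Pax7/Myf5+ cells that the rule left out carried Acta2 too, in 51.6, 42.1 and 59.5% of cells. In the selected Pax7/Myf5+ cells, which had higher median UMI counts, it was 78.0, 82.7 and 78.3%. The 24 mural markers summed to 1050, 1059 and 1345 CPM in the left-out cells. In the selected Pax7/Myf5+ cells they summed to 1519, 1708 and 1992 CPM. Single genes given below were not compared with the left-out cells.

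Mcam, the adhesion molecule CD146, stood at 246, 262 and 257 CPM in Pax7/Myf5− cells and at 8.42, 3.33 and 9.86 CPM in Pax7/Myf5+ cells. Over all selected cells it was higher than in the rest by 5.57 ± 0.53 on the log2 scale (adjusted p = 0.00026). The levels in Pax7/Myf5− cells differed little among the libraries, unlike those of Rgs5. Cox4i2, a cytochrome oxidase subunit isoform, reached 328, 164 and 201 CPM in Pax7/Myf5− cells and 8.42, 0 and 5.92 CPM in Pax7/Myf5+ cells (log2 fold change of all selected cells 6.19 ± 0.77, adjusted p = 0.000902). Ndufa4l2, another mitochondrial protein, gave 688, 426 and 487 CPM against 10.1, 0 and 21.7 CPM (5.86 ± 0.88, adjusted p = 0.00214, and 0.0550 without library 3).

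Pdgfrb, the receptor of PDGF-B, stood at 733, 209 and 336 CPM in Pax7/Myf5− cells and at 28.6, 1.67 and 5.92 CPM in Pax7/Myf5+ cells. The fold change of all selected cells was 3.63 ± 0.78 (adjusted p = 0.0115), but without library 3 the adjusted p was 0.117. Vtn, which encodes vitronectin, and Art3, an ecto-ADP-ribosyltransferase, differed widely between libraries. Vtn gave 385, 97.1 and 28.0 CPM in Pax7/Myf5− cells (6.34 ± 0.85 over all selected cells, adjusted p = 0.00128). Art3 gave 506, 127 and 25.2 CPM (5.48 ± 0.89, adjusted p = 0.00302). Both were highest in library 1 and lowest in library 3, the order of the Kcnj8 or Abcc9 shares. Steap4, a metalloreductase, was the only marker of the list that did not pass, at 621, 82.2 and 30.8 CPM in Pax7/Myf5− cells and 27.5, 21.7 and 28.0 CPM in all other cells (2.25 ± 0.92, adjusted p = 0.109).

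Heyl, Des and Itga7 belonged to both kinds of selected cells. Heyl, a target of Notch signalling, was lower in Pax7/Myf5− cells (103, 74.7 and 97.9 CPM) than in Pax7/Myf5+ cells (200.5, 277 and 243 CPM), and the 2 ranges did not overlap. Against all other cells, with 10.6, 8.80 and 9.95 CPM, the fold change was 4.19 ± 0.21 (adjusted p = 3.66e-05). Des, the muscle intermediate filament desmin, stood at 259, 366 and 252 CPM and at 494, 617 and 552 CPM in the 2 kinds (4.21 ± 0.36, adjusted p = 0.000188). Itga7, a laminin-binding integrin subunit of muscle, stood at 153, 119.6 and 137 CPM in Pax7/Myf5− cells and 43.8, 55.0 and 55.2 CPM in Pax7/Myf5+ cells (5.39 ± 0.21, adjusted p = 3.52e-05).

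**Figure D3:**
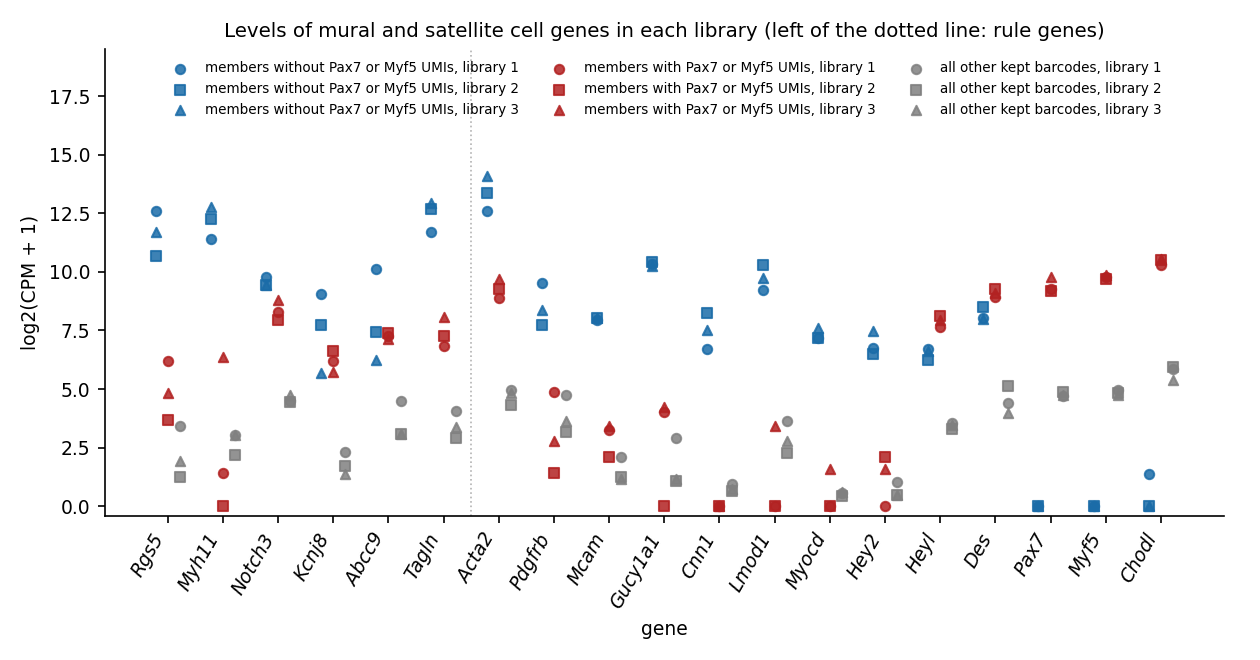
Levels of rule genes, mural genes and muscle genes (horizontal axis) as log2(CPM + 1) (vertical axis), 1 symbol per library, for Pax7/Myf5− selected cells (blue), Pax7/Myf5+ selected cells (red) and all other kept cells (grey). Rgs5, Myh11 and Mcam were high in Pax7/Myf5− cells, Heyl and Des in both kinds of selected cells, and Pax7, Myf5 and Chodl in Pax7/Myf5+ cells.

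All 25 contractile genes were higher in the selected cells than in the rest, with a median log2 fold change of 4.03, and all 25 were so without library 2 or without library 3, and 24 without library 1. Acta2, Actg2, Cnn1, Lmod1 and Des are also among the mural markers, so the counts of both lists are not separate. Lists below share genes with the mural markers too, such as Pln and Trpc6 among the channels. Cnn1, the actin-binding protein calponin, stood at 103, 306 and 185 CPM in Pax7/Myf5− cells and at 0 in Pax7/Myf5+ cells (log2 fold change of all selected cells 6.34 ± 0.28, adjusted p = 3.52e-05). Lmod1, which nucleates actin filaments, gave 593, 1248 and 850.1 CPM against 0, 0 and 9.86 CPM (5.31 ± 0.44, adjusted p = 0.000158). Myl9, the regulatory light chain of smooth muscle myosin, gave 2359, 4222 and 5330 CPM against 16.8, 10.00 and 49.3 CPM (6.47 ± 0.62, adjusted p = 0.000274). In Pax7/Myf5− cells all 3 were lowest in library 1, as was Myh11.

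The kinase and the thin filament followed. Mylk, the myosin light chain kinase, gave 1340, 2376 and 2604 CPM in Pax7/Myf5− cells and 63.6, 24.9 and 33.2 CPM in all other cells (4.12 ± 0.45, adjusted p = 0.000469). Tpm2, a tropomyosin, gave 1284, 2541 and 2634 CPM against 40.4, 33.9 and 56.2 CPM (4.03 ± 0.34, adjusted p = 0.000171). In Pax7/Myf5+ cells Mylk stood at 21.9, 28.3 and 41.4 CPM, within the range of the other cells or below it. Jph2, which holds the sarcoplasmic reticulum close to the plasma membrane, gave 66.2, 82.2 and 106 CPM in Pax7/Myf5− cells (6.04 ± 0.39, adjusted p = 7.26e-05). Of the 4 contractile genes with the strict form of the CArG box upstream, Myl9 is given above and the other 3 differed less. Csrp1, a LIM protein, differed by 1.65 ± 0.17 (adjusted p = 0.000409), Flna, which cross-links actin, by 2.63 ± 0.22 (adjusted p = 0.000177) and Vcl, the adhesion protein vinculin, by 1.60 ± 0.23 (adjusted p = 0.00188).

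Of 4 regulators of these genes, Myocd, which encodes myocardin, was higher at 142, 142 and 193 CPM in Pax7/Myf5− cells, 0, 0 and 1.97 CPM in Pax7/Myf5+ cells and 0.501, 0.354 and 0.540 CPM in all other cells (6.92 ± 0.45, adjusted p = 7.23e-05). Srf, the serum response factor itself, stood at 11.4, 10.9 and 12.7 CPM in the selected cells and 8.74, 7.80 and 10.6 CPM in the rest (0.28 ± 0.27, adjusted p = 0.570). The myocardin-related factor Mrtfb was lower in the selected cells by 0.81 ± 0.13 on the log2 scale, at 81.5, 83.1 and 102 CPM against 146, 149.6 and 143 CPM (log2 fold change −0.81, adjusted p = 0.00284).

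Of 18 genes of ion channels and calcium handling, 14 were higher and none lower, with a median log2 fold change of 2.99. Without library 3 the number higher was 7. Pln, phospholamban, the brake on the calcium pump of the sarcoplasmic reticulum, stood at 290.2, 284 and 666 CPM in Pax7/Myf5− cells and 0.458, 0.158 and 0.593 CPM in all other cells (8.50 ± 0.76 over all selected cells, adjusted p = 0.000209). Atp1b2, a subunit of the sodium pump, gave 222, 187 and 257 CPM against 1.65, 0.596 and 0.699 CPM (6.43 ± 0.59, adjusted p = 0.000226). Kcnmb1, the smooth muscle subunit of the calcium-activated potassium channel, gave 53.6, 74.7 and 131 CPM against 2.10, 1.59 and 1.22 CPM (4.20 ± 0.49, adjusted p = 0.000656). The pore subunit of that channel, Kcnma1, differed from its partner, with 59.9, 291 and 221 CPM in Pax7/Myf5− cells and 221, 197 and 256 CPM in Pax7/Myf5+ cells (2.97 ± 0.28 over all selected cells, adjusted p = 0.000259).

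Of further channels, Trpc6, Cacna1c and Kcna5 lost their call without library 3 but kept their direction. Trpc6, a receptor-operated cation channel, gave 576, 67.3 and 139.8 CPM in Pax7/Myf5− cells, highest in library 1. Its log2 fold change over all selected cells was 8.86 ± 1.39 (adjusted p = 0.00257), and without library 3 it was 8.79 (adjusted p = 0.0502). Cacna1c, the pore of the L-type calcium channel, gave 945, 785 and 733 CPM in Pax7/Myf5− cells and 57.6, 20.5 and 36.4 CPM in all other cells (3.00 ± 0.50, adjusted p = 0.00361, and 2.97 with adjusted p = 0.0752 without library 3). Ryr2, the ryanodine receptor, was absent from Pax7/Myf5+ cells and gave 55.2, 262 and 75.5 CPM in Pax7/Myf5− cells (2.85 ± 0.36, adjusted p = 0.000969). Kcna5, a voltage-gated potassium channel, gave 99.4, 67.3 and 221 CPM (6.37 ± 1.09, adjusted p = 0.00390, and 5.22 with adjusted p = 0.0619 without library 3).

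Nitric oxide relaxes smooth muscle through guanylate cyclase and cyclic GMP. Of 13 genes of this pathway and of RGS proteins, 10 were higher and none lower, with a median of 3.52, and 6 were higher without library 3. Without Pax7/Myf5+ cells, 9 were higher and 1 lower. Both subunits of soluble guanylate cyclase were higher, and in Pax7/Myf5− cells Gucy1a1 stood at 1310, 1367 and 1230 CPM and Gucy1b1 at 954, 486 and 643 CPM. In all other cells neither passed 6.49 CPM, and the log2 fold changes were 7.28 ± 0.88 (adjusted p = 0.000772) and 7.38 ± 0.99 (adjusted p = 0.00126). Prkg1, the kinase activated by cyclic GMP, stood at 3682, 3168 and 2483 CPM (3.24 ± 0.63, adjusted p = 0.00718, and 0.0926 without library 3). Its substrate Irag1, which restrains calcium release, gave 501, 433 and 562 CPM (6.58 ± 0.70, adjusted p = 0.000429). Pde3a, a phosphodiesterase, was carried by Pax7/Myf5+ cells too, at 157, 162 and 144 CPM beside 1096, 1390 and 1021 CPM in Pax7/Myf5− cells. In all other cells it stood at 12.3, 11.9 and 5.63 CPM (5.59 ± 0.39 over all selected cells, adjusted p = 8.69e-05). Rgs4, like Rgs5 a brake on G protein signals, gave 483, 224 and 643 CPM in Pax7/Myf5− cells (7.93 ± 0.69, adjusted p = 0.000188).

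Of 25 receptors of vasoactive signals, 22 passed the filter on low counts, of which 12 were higher and 2 lower (median 2.27), and without library 3 only 4 were higher. Ednra, the endothelin A receptor of smooth muscle, stood at 563, 433 and 392 CPM in Pax7/Myf5− cells, 10.1, 1.67 and 5.92 CPM in Pax7/Myf5+ cells and 74.6, 28.1 and 36.8 CPM in all other cells (1.89 ± 0.50, adjusted p = 0.0270, and 0.187 without library 3). The endothelin B receptor Ednrb gave 792, 105 and 30.8 CPM in Pax7/Myf5− cells and 17.0, 0.671 and 0.575 CPM in all other cells. In each library it was higher in the selected cells, but the levels of the libraries lay far apart and the call depended on the fit (4.62 ± 1.73, adjusted p = 0.0862, and 8.96e-07 with the library as a block). Adra2b, an adrenergic receptor, gave 11.0, 14.9 and 16.8 CPM in Pax7/Myf5− cells and 0 in Pax7/Myf5+ cells (7.23 ± 0.93, adjusted p = 0.00103). The muscarinic receptor Chrm3 was lower in the selected cells, at 25.2, 54.5 and 67.1 CPM against 195, 158 and 154 CPM (log2 fold change −1.91 ± 0.30, adjusted p = 0.00276).

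In the PDGF list, Pdgfrb was the only 1 of 5 genes called, none was called without library 3, and 4 were higher and 1 lower with the Pax7/Myf5+ cells left out. The ligand gene Pdgfa stood at 396, 329 and 436 CPM in Pax7/Myf5− cells, above the 129, 142 and 180.3 CPM of all other cells, but over all selected cells it did not pass (0.32 ± 0.33, adjusted p = 0.516, and 1.32 with adjusted p = 0.00347 without Pax7/Myf5+ cells). Pdgfd stood at 170.3, 209 and 151 CPM in Pax7/Myf5− cells and had no UMI in Pax7/Myf5+ cells.

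Of 21 Notch pathway genes 19 were tested, of which 7 were higher and 3 lower (median −0.06), beside 10.7 and 17.2% of all genes, with 4 higher without library 3 and 4 higher and 4 lower without Pax7/Myf5+ cells. The target genes were divided between both kinds of selected cells. Hey2, typical of arteries, stood at 106, 89.7 and 179 CPM in Pax7/Myf5− cells and 0, 3.33 and 1.97 CPM in Pax7/Myf5+ cells (6.24 ± 0.63 over all, adjusted p = 0.000333). Nrarp, a feedback inhibitor of Notch, gave 149.8, 97.1 and 263 CPM against 3.37, 1.67 and 3.94 CPM (3.42 ± 0.51, adjusted p = 0.00201). Heyl, given above, and the receptor gene Notch2 leaned the other way, Notch2 with 75.7, 59.8 and 92.3 CPM in Pax7/Myf5− cells and 216, 202 and 254 CPM in Pax7/Myf5+ cells. Over all selected cells Notch2 was higher than in the rest by 0.90 ± 0.15 (adjusted p = 0.00342, and 0.0649 without library 3), while its level in Pax7/Myf5− cells overlapped the 96.3, 76.9 and 81.7 CPM of all other cells. The ligand gene Jag2 was lower, at 8.15, 4.09 and 8.10 CPM against 95.6, 115 and 131 CPM (log2 fold change −4.11 ± 0.25, adjusted p = 6.27e-05).

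Angiopoietins act on the endothelial receptor encoded by Tek. Of 13 angiopoietin and VEGF genes, 4 were higher and 2 lower (median 0.60), with 2 higher without library 2 and 1 without library 3. Angpt2 stood at 88.3, 37.4 and 78.3 CPM in Pax7/Myf5− cells and 3.76, 1.36 and 1.52 CPM in all other cells (3.68 ± 0.67, adjusted p = 0.00531, and 0.0865 without library 3). Tek itself was also called higher (2.69 ± 0.54, adjusted p = 0.00830, and 0.0760 without library 2), but its UMIs lay in Pax7/Myf5+ cells, at 165, 180.0 and 154 CPM, with 9.46, 44.8 and 0 CPM in Pax7/Myf5− cells. Vegfa was lower, at 12.2, 10.9 and 22.0 CPM against 93.2, 76.5 and 102 CPM (log2 fold change −2.69 ± 0.24, adjusted p = 0.000222).

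Of 21 TGF-β and BMP genes, 6 were higher and 6 lower, with a median near 0. Without library 3, 2 were higher. Tgfbr3, the co-receptor betaglycan, stood at 967, 1030 and 1171 CPM in Pax7/Myf5+ cells, against 177, 127 and 182 CPM in Pax7/Myf5− cells and 254, 183 and 120.1 CPM in all other cells (1.88 ± 0.30 over all selected cells, adjusted p = 0.00266). The ligand gene Bmp6 stood at 259, 353 and 527 CPM in Pax7/Myf5+ cells against 53.6, 52.3 and 61.5 CPM in Pax7/Myf5− cells (2.89 ± 0.27, adjusted p = 0.000257). Without Pax7/Myf5+ cells the difference of Bmp6 from all other cells was 0.72 (adjusted p = 0.0315), and it did not pass with the block (adjusted p = 0.116) or without library 2 (adjusted p = 0.132) as well. For both genes the Pax7/Myf5+ cells lay above the Pax7/Myf5− cells in every library.

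Of 19 basement membrane genes, 11 were higher and 2 lower (median 1.68), and 7 were higher without library 3. The collagen IV chains Col4a1 and Col4a2 were both higher, Col4a1 with 468, 367 and 479 CPM in the selected cells against 88.1, 32.3 and 38.4 CPM (2.96 ± 0.38, adjusted p = 0.00103). Col4a2 gave 187, 136 and 183 CPM against 33.4, 13.0 and 15.0 CPM (2.96 ± 0.37, adjusted p = 0.000925). Col4a1 was carried by both kinds, at 612, 284 and 506 CPM in Pax7/Myf5− cells and 315, 385 and 459 CPM in Pax7/Myf5+ cells, and their ranges overlapped. Col18a1, the collagen that yields endostatin, differed by 2.62 ± 0.22 (adjusted p = 0.000171) and was higher in Pax7/Myf5− cells in every library (66.2, 135 and 123 CPM against 27.0, 25.0 and 25.6 CPM). Hspg2, perlecan, differed by 1.99 ± 0.21 (adjusted p = 0.000446) and was higher in Pax7/Myf5+ cells in every library (52.0, 74.7 and 67.1 CPM against 157, 133 and 169.6 CPM). Of 9 interstitial collagens, 3 were higher and none lower (median 0.91), and none was called without library 3 or without Pax7/Myf5+ cells. Without library 2, 3 were higher and 2 lower.

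Of 30 transcription factors 29 were tested, of which 15 were higher and 2 lower (median 1.60), but without library 2 the number higher was 11 and without library 3 it was 5. Foxs1, a forkhead factor of mural cells, held without each library, at 74.1, 37.4 and 69.9 CPM in Pax7/Myf5− cells and at most 3.33 CPM in Pax7/Myf5+ cells (5.49 ± 0.66, adjusted p = 0.000759). Ebf1, an early B cell factor also used by pericytes, gave 1978, 1016 and 937 CPM in Pax7/Myf5− cells and 293, 358 and 318 CPM in Pax7/Myf5+ cells (3.00 ± 0.68, adjusted p = 0.0138, 0.0538 without library 2 and 0.102 without library 3). Its relative Ebf2 gave 486, 239 and 263 CPM against 11.8, 1.67 and 7.89 CPM (4.41 ± 0.81, adjusted p = 0.00538, and 0.0780 without library 3). Tbx2, a T-box factor, gave 333, 262 and 380.3 CPM against 6.74, 5.00 and 5.92 CPM (2.83 ± 0.45, adjusted p = 0.00280, and 0.0716 without library 3).

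Several of these calls ended when the cells marked as doublets were removed, which left 126, 60 and 63 selected cells. Of those, 68, 8 and 4 were Pax7/Myf5− cells, so that few remained in library 3. Among the contractile genes Csrp1 (0.91, adjusted p = 0.287) and Vcl (1.22, adjusted p = 0.118) no longer passed, nor did the channels Cacna1c (2.36, adjusted p = 0.112), Ryr2 (2.20, adjusted p = 0.0766) and Kcna5 (5.24, adjusted p = 0.0519). The same held for Pdgfrb (3.27, adjusted p = 0.0883), Prkg1 (2.72, adjusted p = 0.106), Ednra (1.37, adjusted p = 0.310), Nrarp (2.47, adjusted p = 0.0978), Angpt2 (2.94, adjusted p = 0.0954), Ebf2 (4.06, adjusted p = 0.0556) and Tbx2 (2.09, adjusted p = 0.140). All 12 kept their direction. Thinning to 2000 UMIs ended the calls of Mrtfb (0.0518), Notch2 (0.0733) and Tek (0.0701). Without Pax7/Myf5+ cells Notch2, Tek and Tgfbr3 were no longer called (adjusted p = 0.616, 0.748 and 0.645), and Steap4 (3.31, adjusted p = 0.0240) and Ednrb (5.72, adjusted p = 0.0396) were higher.

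**Figure D4:**
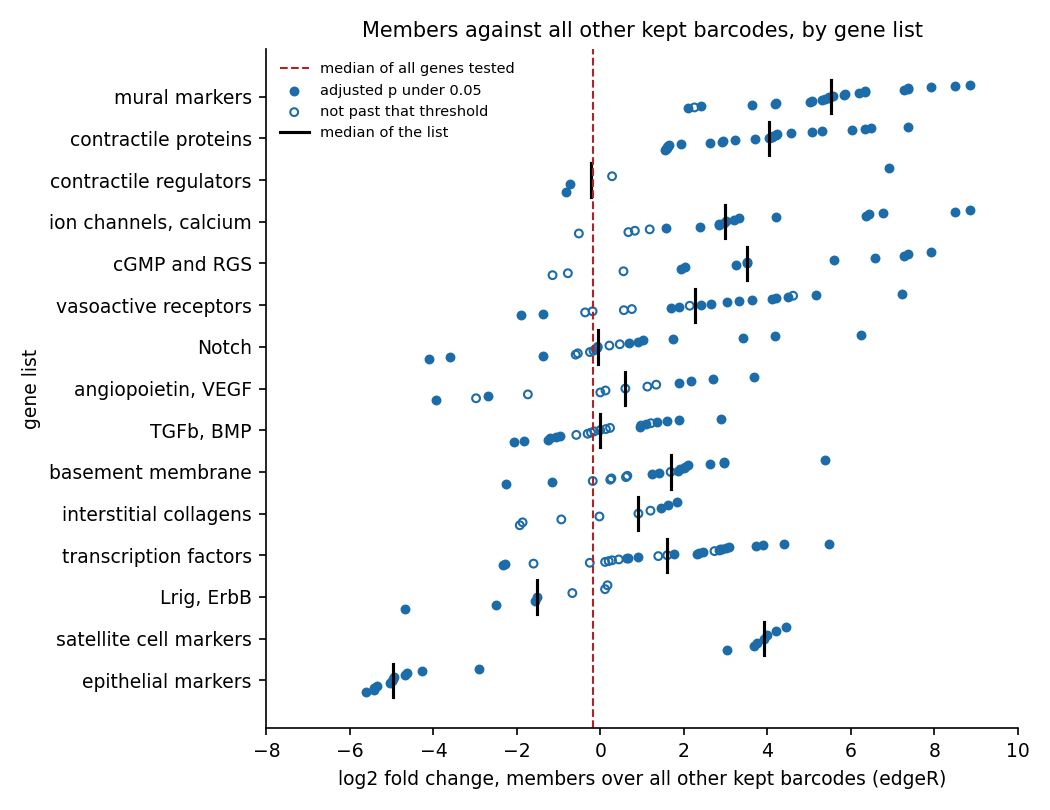
Log2 fold change of the selected cells (members in the title) against all other cells (horizontal axis) for the genes of each list (vertical axis), 1 point per gene, filled where the adjusted p was under 0.05; black bars are list medians and the dashed line is the median of all genes tested, −0.17. Mural and contractile genes lay to the right and epithelial markers to the left, and Htr2a, Htr2b, Meox1 and Hand2, with no UMI in the selected cells, lie left of the axis.

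Lrig1 drives the Cre of this model, and its protein limits signalling by ErbB receptors. Of 7 genes of the Lrig and ErbB families, none was higher and 4 were lower (median −1.53). Lrig1 stood at 40.7, 76.3 and 49.7 CPM in the selected cells against 68.6, 87.6 and 89.8 CPM, lower in each library, but its call depended on the fit (log2 fold change −0.67 ± 0.25, adjusted p = 0.0807, and 0.0170 with the library as a block). The level in Pax7/Myf5− cells was 18.9, 14.9 and 25.2 CPM, and in Pax7/Myf5+ cells 64.0, 90.0 and 67.0 CPM, so the ranges of the 2 kinds did not overlap. Lrig3 was lower by −1.57 ± 0.29 (adjusted p = 0.00553, and 0.0529 without library 2), at similar levels in both kinds. Erbb2 (−2.51 ± 0.34, adjusted p = 0.00127) and Erbb3 (−4.68 ± 0.52, adjusted p = 0.000515), partner receptors of the family, were lower too. Egfr, the receptor for epidermal growth factor, did not pass over all selected cells (0.11 ± 0.28, adjusted p = 0.807), and this average covered 59.9, 22.4 and 11.2 CPM in Pax7/Myf5− cells and 371, 590.0 and 584 CPM in Pax7/Myf5+ cells, with 295, 295 and 316 CPM in all other cells. Without Pax7/Myf5+ cells both Lrig1 (−2.05, adjusted p = 0.00104) and Egfr (−3.12, adjusted p = 0.00136) were lower.

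Of 13 tested chemokine and cytokine genes, 3 were higher and 2 lower, beside 10.7 and 17.2% of all genes. The number higher was 1 without library 1 or without library 2, and 6 without Pax7/Myf5+ cells. Of these 6, Ccl2, Ccl7, Ccl8, Cxcl1 and Cxcl2 stood at 86.7 to 468 CPM in the Pax7/Myf5− cells of library 1 and at 0 in those of libraries 2 and 3. The immune marker list summed to 1716, 0 and 151 CPM in the same cells, and its part in these calls was not tested. Il34, a ligand of the macrophage growth factor receptor, gave 364, 89.7 and 173 CPM in Pax7/Myf5− cells and 2.32, 1.85 and 1.27 CPM in all other cells (5.69 ± 0.77, adjusted p = 0.00132). None of 16 immediate-early genes passed, although their median fold change was 1.01, and Fos showed a library that stood apart, with 195, 4455 and 183 CPM in Pax7/Myf5+ cells and 128, 837 and 126 CPM in Pax7/Myf5− cells. Of 16 cell cycle genes, 3 were lower and none higher, a share near the 17.2% of all genes that were lower, and none was called without library 1 or without Pax7/Myf5+ cells. Mki67, a proliferation marker, gave 0.815, 0 and 2.31 CPM against 13.4, 7.25 and 33.3 CPM (−4.17 ± 0.99, adjusted p = 0.0168, 0.0783 without library 1, 0.0919 with at least 4 rule genes, 0.191 thinned to 2000 UMIs and 0.0969 without Pax7/Myf5+ cells), and Top2a, a topoisomerase of dividing cells, was lower too (−3.92 ± 0.82, adjusted p = 0.00991, and 0.0555, 0.0754, 0.206 and 0.0638 under the same alternatives). With the library as a block, Mki67 and Top2a did pass without Pax7/Myf5+ cells. All 12 tested epithelial markers were lower, which was partly set by the bar on Epcam in the rule. All 7 tested satellite cell markers were higher, among them Pax7 (3.91 ± 0.23, adjusted p = 5.23e-05) and Myf5 (4.21 ± 0.21, adjusted p = 3.66e-05). None of 9 endothelial markers passed in either direction, but 1 was higher without library 1 and 1 without Pax7/Myf5+ cells. This list summed to 467, 448 and 266 CPM in Pax7/Myf5− cells and to 327, 31.9 and 15.7 CPM in all other cells. In endothelial cells it summed to 9125, 7580 and 7758 CPM.

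The 12 largest rises among genes of at least 20 CPM, outside the rule, lay mainly in the Pax7/Myf5− cells. A pair of neighbouring odorant receptor genes came first. Or51e2 (chr7:102387718-102408685, GRCm39, minus strand) stood at 32.6, 15.0 and 68.2 CPM in the selected cells and 0.0358, 0.0186 and 0.0565 CPM in all other cells (9.75 ± 0.68, adjusted p = 8.95e-05). Or51e1 (chr7:102351422-102361271, plus strand), 26446 bases away, gave 134, 31.3 and 205 CPM against 0.179, 0.0280 and 0.254 CPM (9.42 ± 0.87, adjusted p = 0.000242). In Pax7/Myf5− cells alone they reached 61.5, 82.2 and 154 CPM and 257, 172 and 487 CPM, and in Pax7/Myf5+ cells at most 7.89 and 5.92 CPM. Trpc6, Pln and Rgs4, given above, were among the 12, as were Casq2, the calcium store protein calsequestrin (8.11 ± 0.70, adjusted p = 0.000188), Map3k7cl (8.79 ± 0.63, adjusted p = 9.45e-05), Nrip2 (7.93 ± 0.66, adjusted p = 0.000162), Otogl (8.39 ± 0.85, adjusted p = 0.000351) and the long noncoding RNAs Gm13861, Gm6249 and Atcayos (Atcayos 7.67 ± 0.69, adjusted p = 0.000214).

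Against fibroblasts of the same libraries, 3017 cells with Dcn and Pdgfra UMIs, the question was what distinguishes the selected cells from other mesenchymal cells. Of 12096 genes, 3547 differed (29.3%), 1495 higher (12.4%) and 2052 lower (17%), and leaving out a library gave 2220 without library 1, 2640 without library 2 and 2449 without library 3. Of the mural markers 21 of 24 and of the contractile genes 24 of 25 were higher, with medians of 5.17 and 2.02, beside a median of 0.01 for all genes. Acta2 stood at 13.0, 22.2 and 20.6 CPM in fibroblasts (7.92 ± 0.57, adjusted p = 5.02e-05), Mcam at 0.462, 0 and 0.436 CPM (7.88 ± 0.49, adjusted p = 2.62e-05) and Cnn1 at 0, 0.277 and 0.0873 CPM (9.49 ± 0.46, adjusted p = 1.53e-05). Esam, an adhesion molecule of vessel cells, gave 0.809, 0.277 and 0.349 CPM in fibroblasts and 154, 45.0 and 97.1 CPM in the selected cells (7.39 ± 0.55, adjusted p = 5.68e-05).

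Some mural genes did not pass against fibroblasts over all selected cells, but did so with the Pax7/Myf5+ cells left out. Pdgfrb stood at 124, 156 and 151 CPM in fibroblasts, within the 393, 39.5 and 142 CPM of the selected cells (0.42 ± 0.60, adjusted p = 0.646). Cacna1c (0.02 ± 0.38, adjusted p = 0.981), Prkg1 (0.30 ± 0.37, adjusted p = 0.604) and Ebf1 (0.24 ± 0.37, adjusted p = 0.679) did not pass either, and for each of these 4 genes the Pax7/Myf5+ cells had the lower level of the 2 kinds. Without them all 4 were higher than in fibroblasts, Pdgfrb by 1.68 (adjusted p = 0.00942), Cacna1c by 1.44 (adjusted p = 0.00167), Prkg1 by 1.72 (adjusted p = 0.000449) and Ebf1 by 1.14 (adjusted p = 0.0362). All 9 interstitial collagens and all 8 tested fibroblast markers were lower in the selected cells, with medians of −2.47 and −5.63. Fibroblasts were chosen by Dcn and Pdgfra UMIs and the rule bars Pdgfra, so this direction was partly set by the choice of cells. Col1a1, the main collagen I chain, gave 22.0, 6.81 and 59.0 CPM against 591, 762 and 2337 CPM (−5.39 ± 0.77, adjusted p = 0.00127). Col3a1, of collagen III, differed by −2.47 ± 0.48 (adjusted p = 0.00564), Lamb1, a laminin chain, by −2.78 ± 0.26 (adjusted p = 0.00016) and Angpt1, the activating ligand of Tek, by −2.25 ± 0.27 (adjusted p = 0.000514).

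The largest differences from fibroblasts were near absences on 1 side. Slc38a11, an amino acid transporter, had 745 UMIs in the selected cells and 2 in fibroblasts, and Gja4, the arterial gap junction protein connexin 37, had 427 and 1. Or51e1 had 364 and 1 and Map3k7cl 352 and 1. Or51e2 had 110 and 0 UMIs, which is at least 420-fold higher against a floor of 3 UMIs over the 3 libraries. In the other direction, no UMI was found in the selected cells for Cxcl14, a chemokine (at least 57.3-fold lower), Aldh1a2, which makes retinoic acid (at least 59.5-fold lower), Lvrn (at least 56.2-fold lower), Myrip (at least 47.5-fold lower) and Chil1 (at least 67.2-fold lower, with adjusted p = 0.0372, 0.0979 without library 1, 0.120 without library 2 and 0.0771 with at least 4 rule genes).

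Endothelial cells (469 cells, 407, 30 and 32 per library) are the other cells of the vessel wall. Of 9482 genes, 2917 differed (30.8%), 1353 higher (14.3%) and 1564 lower (16.5%) in the selected cells. Of the mural markers 16 of 21 tested were higher and none lower (median 7.11, beside 0.04 for all genes), and of the contractile genes 20 of 24. Acta2 stood at 5.69, 12.3 and 3.48 CPM in endothelial cells (9.35 ± 0.67, adjusted p = 9.8e-06), Pdgfrb at 0.271, 3.07 and 0 CPM (8.31 ± 1.27, adjusted p = 0.000751) and Angpt1 at 7.31, 0 and 6.96 CPM (2.98 ± 0.50, adjusted p = 0.00138). The partners on the endothelial side were lower in the selected cells, Pdgfb at 14.7, 4.09 and 19.7 CPM against 274, 104 and 178 CPM (−3.92 ± 0.46, adjusted p = 0.000148) and Tek at 84.7, 155 and 90.2 CPM against 373, 386 and 432 CPM (−1.91 ± 0.27, adjusted p = 0.000447). Esam was lower by −2.46 ± 0.39 (adjusted p = 0.000869).

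Some genes of the vessel wall did not pass over all selected cells. Mcam gave 131, 50.4 and 112 CPM against 62.3, 70.5 and 59.2 CPM (0.56 ± 0.32, adjusted p = 0.232, and 0.0242 without library 2), Sncg 319, 101 and 136 CPM against 153, 101 and 118 CPM (0.49 ± 0.40, adjusted p = 0.404) and Col4a1 468, 367 and 479 CPM against 616, 297 and 445 CPM (−0.12 ± 0.28, adjusted p = 0.799). With the Pax7/Myf5+ cells left out, Mcam was higher than in endothelial cells by 2.05 (adjusted p = 6.2e-05) and Sncg by 2.02 (adjusted p = 0.000448), and both also passed with at least 4 rule genes (adjusted p = 0.000515 and 0.0011). Tinagl1, a basement membrane protein, was close to the threshold (−0.93 ± 0.35, adjusted p = 0.0721, 0.0296 with the library as a block, 0.0499 without library 3 and 0.00174 with marked doublets removed). Mef2c, a transcription factor of muscle and endothelium, was called lower (−1.78 ± 0.52, adjusted p = 0.0277), but not without library 1 (0.0793) or library 3 (0.0866), and stood at 692, 605 and 783 CPM in Pax7/Myf5− cells and 3.37, 1.67 and 13.8 CPM in Pax7/Myf5+ cells. Without the latter its difference was −0.26 (adjusted p = 0.698).

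The 5 largest rises against endothelial cells, among called genes of at least 20 CPM with 1 direction in all libraries, were genes with no UMI there, Irag1 (at least 297-fold higher in the selected cells), Ebf2 (226), Itga8, an integrin subunit of smooth muscle (210), Edn3, an endothelin (208), and the noncoding RNA Rian (205). Of these, Edn3 and Rian had most of their UMIs in Pax7/Myf5+ cells, Edn3 at 253, 193 and 268 CPM against 0, 44.8 and 2.80 CPM in Pax7/Myf5− cells and Rian at 165, 218 and 318 CPM against 18.9, 0 and 2.80 CPM. The 5 largest falls were genes with no UMI in the selected cells, Ccl21a, the chemokine of lymphatic vessels (at least 1940-fold lower), Mmrn1, also known from lymphatic endothelium (561), Gpm6a (170), Selp, the adhesion molecule P-selectin (164), and Cytl1 (113). The endothelial cells of library 1 made up most of that group, and in library 3 all but 1 of them were marked by the doublet caller.

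Within the selected cells, those with a UMI of Kcnj8 or Abcc9 (100, 55 and 53 cells) were compared with those that had Myh11 and neither of both (25, 7 and 43 cells), a split by textbook genes of pericytes and of smooth muscle. Of 6873 genes, 1543 differed (22.5%), 830 higher (12.1%) and 713 lower (10.4%) in the Kcnj8/Abcc9 cells, and without library 3 the number was 413, against 1053 without library 2 and 1469 without library 1. The split followed Pax7 and Myf5 as well, since 143 of the 171 Pax7/Myf5+ cells fell into the Kcnj8/Abcc9 group. Pax7 stood at 339, 496 and 639.6 CPM there and at 0, 0 and 71.4 CPM in the Myh11 group (3.87 ± 0.78, adjusted p = 0.00594, 0.0839 by DESeq2 and 0.0508 without cells with keratin UMIs), and Myf5 at 532, 733 and 831 CPM against 0, 0 and 13.6 CPM (6.64 ± 0.61, adjusted p = 0.000191). All 5 of the largest rises, Fgfr4 (at least 102-fold), Calcr (65.6), Mybpc1 (53.6), Dlg2 (50.7) and Chrdl2 (43.8), had no UMI in the Myh11 group. Their UMIs lay in Pax7/Myf5+ cells, Fgfr4 at 598, 704 and 726 CPM and Calcr at 413, 415 and 428 CPM, and in Pax7/Myf5− cells all 5 were at 0 except Dlg2 in library 3, at 11.2 CPM.

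Over all selected cells, contractile genes were lower in the Kcnj8/Abcc9 group in 22 of 25 cases and channel genes in 11 of 16, with medians of −2.52 and −2.34 beside 0.12 for all genes. With the Pax7/Myf5+ cells left out, 0 of 24 contractile genes and 2 of 13 channel genes were called lower, beside 1.51% of all 3584 genes tested then (2.04% higher), and the medians were −1.08 and −1.15, beside 0.02 for all genes. In that fit 5 of 6 interstitial collagens were higher in the Kcnj8/Abcc9 group (median 3.87), as were 2 of 3 fibroblast markers (median 3.67), lists that share genes. Over all selected cells 5 of 7 interstitial collagens were higher. Among fibroblasts, 25.6, 29.9 and 29.6% of cells had a Kcnj8 or Abcc9 UMI. Over all selected cells Acta2 gave 1460, 1495 and 1418 CPM against 11157, 12097 and 20459 CPM (−3.38 ± 0.33, adjusted p = 0.000229). Pln gave 16.8, 20.5 and 13.2 CPM against 679, 361 and 819.6 CPM (−5.26 ± 0.40, adjusted p = 0.000143), Myocd differed by −4.25 ± 0.43 (adjusted p = 0.000236) and Myl9 by −3.66 ± 0.36 (adjusted p = 0.000222). Without Pax7/Myf5+ cells, 127 genes differed in place of 1543, and Acta2 (−1.54, adjusted p = 0.111), Myl9 (−1.37, adjusted p = 0.0955) and Myocd (−2.14, adjusted p = 0.0569) no longer passed. With marked doublets removed, which left 22, 4 and 1 cells in the Myh11 group, the folds of Acta2 (−3.02, adjusted p = 0.166) and Myl9 (−3.64, adjusted p = 0.188) stayed near their values over all selected cells but did not pass. Pax7 (1.15, adjusted p = 0.746), Myf5 (4.91, adjusted p = 0.0957) and Vtn (2.56, adjusted p = 0.299) had smaller folds and did not pass. The Pax7/Myf5− cells kept the same order of Acta2 levels in each library, 2861, 9218 and 4082 CPM with Kcnj8 or Abcc9 and 11158, 12100 and 21764 CPM with Myh11 alone. These Kcnj8/Abcc9 groups held 50, 6 and 9 cells and the Myh11 groups 25, 7 and 41 cells, and the levels were closest in library 2. The part of these small groups in the fall from 1543 to 127 genes was not tested.

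In the Pax7/Myf5− cells, mural markers differed in which group was higher. Of 23 tested there, 3 were called higher in the Kcnj8/Abcc9 group (Vtn, Art3 and Steap4, adjusted p = 0.0192, 0.0308 and 0.00798) and Pln was lower (adjusted p = 0.0265). Vtn stood at 626, 155 and 119 CPM against 12.1, 43.3 and 0 CPM in the Myh11 group, Art3 at 802, 263 and 83.6 CPM against 48.2, 0 and 7.31 CPM, and Steap4 at 1023, 170 and 119 CPM against 0, 0 and 3.65 CPM. Heyl gave 156, 155 and 155 CPM against 20.1, 0 and 80.4 CPM. Rgs5, a rule gene given as a description, stood at 8807, 2030 and 10396 CPM against 1974, 1300 and 1231 CPM. Vtn, Art3, Steap4 and Heyl were each higher in the Kcnj8/Abcc9 group in all 3 libraries. Rgs4 went the other way in all 3, at 408, 62.0 and 418 CPM against 599, 375 and 712 CPM. P2ry14, with 119, 15.5 and 11.9 CPM against 72.4, 101 and 73.1 CPM, was lower in libraries 2 and 3, as was Mcam in libraries 1 and 3. Ndufa4l2 and Cox4i2 were lower in library 2, at 248 against 592 CPM and 139 against 188 CPM, and Cspg4, a rule gene, in library 3, at 167 against 289 CPM. Over all selected cells Vtn passed (3.56 ± 1.12, adjusted p = 0.0459) but not without library 1 (0.113), library 2 (0.0514) or library 3 (0.168). Among the 5 largest falls in the Kcnj8/Abcc9 group were Pln, Atcayos, Tmem255b and Relt.

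The study asked about Lrig1+ cells, so the selected cells were also divided by a Lrig1 UMI. A UMI was found in 35 of 134, 30 of 65 and 33 of 110 selected cells, 26.1, 46.2 and 30%, with a mean of 34.1% ± 10.6 (SD, n = 3), against 38.7, 56.7 and 53.1% and a mean of 49.5% ± 9.51 in all other cells. The difference of −15.4 percentage points had the same sign in 3 of 3 libraries, and the exact two-sided permutation test over libraries gave p = 0.25, the smallest that 3 libraries allow. Pax7/Myf5− cells had 14.7, 15.4 and 16.0% and Pax7/Myf5+ cells 40.7, 53.8 and 41.7%. Endothelial cells had 7.37, 10.0 and 15.6%, and immune cells 0, 2.86 and 7.69%. Depth differed between these groups. With each cell thinned to 5000 UMIs, for which 116, 61 and 81 selected cells were deep enough, the mean shares were 22.3% in the selected cells, 6.90% in Pax7/Myf5− cells, 28.5% in Pax7/Myf5+ cells, 30.6% in all other cells, 10.4% in endothelial cells and 0 in immune cells. With each cell thinned to 2000 UMIs, Pax7/Myf5+ cells stood at 15.8% and all other cells at 14.6%, the reverse of their order at 5000 UMIs and unthinned, while Pax7/Myf5− cells stood at 3.31%. All of these cells, the immune cells included, had passed the tdTomato gate, so none of them is a group known to lack the transcript, and the level given by free RNA was not tested.

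**Figure D5:**
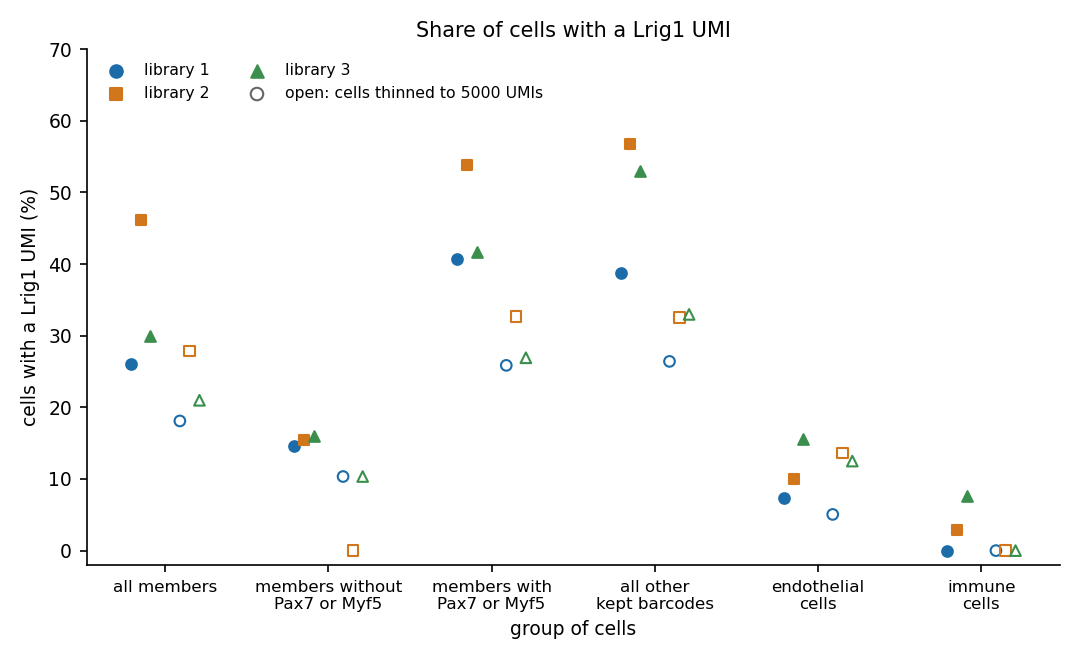
Percent of cells with a Lrig1 UMI (vertical axis) in each group of cells (horizontal axis), 1 filled symbol per library and an open symbol for cells thinned to 5000 UMIs; members are the selected cells. Pax7/Myf5− cells lay at 14.7 to 16.0%, below Pax7/Myf5+ cells at 40.7 to 53.8% and all other cells at 38.7 to 56.7%.

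Between Lrig1+ and Lrig1− selected cells no gene of 6717 passed (0%) by edgeR, where 813 had an unadjusted p under 0.05, and DESeq2 called 1. With the library as a block edgeR called 403 (6%), 115 higher and 288 lower in Lrig1+ cells. The genes called by that fit were ranked by their fold change without the block, and the values given are those with it. In this ranking the largest rises were Rad51b (2.23, adjusted p = 0.00113), the noncoding RNA 4933406I18Rik (2.12, adjusted p = 0.0158), Hspa1a (1.58, adjusted p = 0.00364), Klf4 (adjusted p = 0.00451) and Fosb (1.43, adjusted p = 0.00273). The last 3, stress or immediate-early genes, were highest in library 2, Fosb at 25.7, 1131 and 61.3 CPM in Lrig1+ cells and 15.9, 343 and 24.5 CPM in Lrig1− cells and Klf4 at 48.6, 463 and 54.5 CPM and 27.3, 104 and 28.0 CPM. The 16 immediate-early genes summed to 2408, 16178 and 2429 CPM in the selected cells, and the part of library 2 in these calls was not tested. In the same ranking the largest falls were Fgl2 (adjusted p = 0.00461), Acss1 (−2.87, adjusted p = 0.00344), Dock8 (−2.78, adjusted p = 0.00124), Tesc (−2.60, adjusted p = 0.00132) and Or51e2 (−2.56, adjusted p = 0.00608). Pax7/Myf5+ cells were 24 of 35, 28 of 30 and 25 of 33 Lrig1+ cells and 35 of 99, 24 of 35 and 35 of 77 Lrig1− cells, and the part of this makeup in the calls was not tested. With Pax7/Myf5+ cells left out, the Lrig1+ cells numbered 11, 2 and 8 and 2341 genes could be tested by edgeR. None was called, with 37 at an unadjusted p under 0.05 and 51 with the block. How far these cell numbers limited the calls was not tested.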

How the data were processed

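Single-cell RNA sequencing (10x Chromium GEM-X 3′) was measured in 3 libraries of tdTomato-sorted larynx cells. Per the labels, the authors aligned the reads to mm39 with Cell Ranger 8.0.1 and deposited UMI counts per gene and barcode, as whole numbers without normalization. No quality limit had been applied to them. The members and gene lists were chosen with earlier results of these data known.

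From the deposited counts, barcodes of 500 to 8000 genes, from 1000 up to 40000 UMIs and no more than 8% UMIs of mitochondrial genes were retained, those with UMIs of all of Krt5, Ltf, Scgb3a1 and Dcn dropped, and the rule applied. CPM divides a group's summed count by its UMIs in that library. The sums of a group's UMIs in each library were compared by the quasi-likelihood test of edgeR 4.0.16 under R 4.3.3 (glmQLFit and glmQLFTest after TMM and filterByExpr), without covariates, two-sided, with Benjamini-Hochberg adjusted p under 0.05. Fold changes are log2 with their standard error (limma 3.58.1 is loaded by edgeR). The 15 genes of the rule and its limits carry no test. The comparisons share the selected cells and are not independent. Libraries are separate pools, so p-values measure the spread between pools.

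The 2 groups compared within a library derive from 1 pool of animals. Their deviations from the group means correlated by 0.199, 0.122 and 0.174 in libraries 1 to 3 against all other cells, 0.122, 0.153 and 0.210 against fibroblasts, 0.0665, 0.0534 and 0.0524 against endothelial cells, 0.0572, 0.0425 and 0.178 between the Kcnj8/Abcc9 and Myh11 groups and 0.373, 0.374 and 0.282 between Lrig1+ and Lrig1− cells.

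Fibroblasts had UMIs of Dcn and Pdgfra and none of Epcam and Cdh5. Endothelial cells had Cdh5 and at least 2 of 6 further endothelial genes and none of Epcam and Pdgfra. Immune cells had at least 3 immune markers and none of Epcam, Pdgfra and Cdh5. Each of these groups was limited to at most 2 rule genes. Any listed gene could be named, with the 12 largest rises against all other cells and the 5 largest rises and falls of the other comparisons, at 20 CPM or more in the higher group and in 1 direction in all libraries. Some of these genes are not reported here. Alternatives were DESeq2 1.42.0, RLE size factors, no filter on low counts, the library as a block, each library left out, other numbers of rule genes, doublets removed (scikit-learn 1.9.0, 30 components, 0.4% per 1000 barcodes), thinning to 2000 and 5000 UMIs and cells with keratin UMIs left out. Leaving out Pax7/Myf5+ cells was added after seeing the data. Intervals are 95% exact binomial. In simulated counts for the comparison with all other cells, 93.9 and 100% of genes changed by −3 and 3 on the log2 scale were recovered, and 44.6 and 41.2% of those changed by −1 and 1. The simulation gave every gene the same spread between libraries and changed only genes above a low level. Its shares therefore do not hold for genes that varied more between libraries, such as Trpc6 and Ednrb.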

Additional observations from a re-analysis of the deposited data

How the results depend on the processing

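Of 1927 alternative values of 148 gene results, 1770 stayed on their side of the threshold, 76 lost and 67 gained the call. A turn in direction between fits that both made no call is counted among the 1770. For 14 values the direction turned with a call in either fit. These were Notch2 (−0.042 with at least 4 rule genes; −0.17, −0.20 and −0.12 without Pax7/Myf5+ cells, alone, with the block and without library 2), Tek (−0.51, −0.58 and −1.57), Tgfbr3 (−0.21, −0.18 and −0.084) and Egfr (−1.28 with at least 4 rule genes; −3.12, −3.26 and −3.02). The cause was not tested. Against all other cells, leaving out a library gave 2646 to 3780 called genes in place of 5115, thinning to 2000 UMIs 2781, and leaving out Pax7/Myf5+ cells and library 2 2142. Against fibroblasts, in place of 3547, the numbers were 2220 to 2640, 1712 and 2118. Against endothelial cells, in place of 2917, they were 1808 with at least 4 rule genes, 1831 without doublets, 1168 thinned and 1867 without Pax7/Myf5+ cells and library 2. Between the Kcnj8/Abcc9 and Myh11 groups, in place of 1543, they were 413 to 1469 without a library, 342 with at least 4 rule genes, 104 without doublets, 527 thinned, 824 without keratin UMIs, 127 without Pax7/Myf5+ cells, 116 with the block as well and 291 without library 2 as well. The number of genes tested changed too, so these counts are not on the same scale. Thinning cut it from 18337 to 14361 against all other cells, from 12096 to 7564 against fibroblasts and from 9482 to 4101 against endothelial cells. Between the Kcnj8/Abcc9 and Myh11 groups it fell from 6873 to 2112 thinned and to 3584 without Pax7/Myf5+ cells. Between Lrig1+ and Lrig1− cells, in place of 0, the paired fit with the library as a block gave 403, DESeq2 1, no filter 454 and cells without keratin UMIs 33. Outside that comparison, the block changed no other call of the main fits named in the text than those of Ednrb, Lrig1 and Tinagl1. Without Pax7/Myf5+ cells, the block ended the call of Bmp6 (0.70, adjusted p = 0.116). In the same cells Mki67, Top2a and, against fibroblasts, Chil1 passed with the block but not without it. The mean share of selected cells, 0.831%, was 2.21% with at least 2 rule genes, 0.360% with 4, 0.241% with 5, 0.423% after thinning to 2000 UMIs and 0.338% without Pax7/Myf5+ cells. The difference in Lrig1 share kept its sign under the alternatives run on all selected cells and on Pax7/Myf5− cells, from −34.2 to −3.28 percentage points, and turned in Pax7/Myf5+ cells alone, from −4.12 to 1.21 when thinned to 2000 UMIs.

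Of the lists, without Pax7/Myf5+ cells all 24 mural markers and all 25 contractile genes, lists that share genes, were higher against all other cells, with medians of 6.93 and 5.06. The interstitial collagens had no call. Depth limits the Pax7/Myf5− cells of library 2 most, where 13 cells held 133823 UMIs, so that 1 UMI is worth 7.47 CPM. Genes at a few UMIs there cannot be ordered.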
